A study of Caenorhabditis elegans with 2 samples.

Results

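Peaks of the Hox transcription factor MAB-5 were described at the microRNA genes of Caenorhabditis elegans. The members were all genes on nuclear chromosomes that Ensembl annotates as microRNA genes, or that carry a microRNA name. Of 46890 annotated nuclear genes, 262 met this rule. They include mir-1831, which both Ensembl and RefSeq annotate as a small nuclear RNA gene. A locus was the window from 2000 bp upstream of the gene start to the gene end, and a peak belonged to it when its summit, the position of highest enrichment, lay inside. The genes were 22 to 1732 bp long, with a median of 95 bp, because most models cover only the hairpin precursor. The windows merged into 216 separate stretches, since 73 of the genes lie in 27 stretches that hold several of them, and together they covered 481756 bases, or 0.480% of the nuclear genome.

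The data are a chromatin immunoprecipitation with sequencing (ChIP-seq) of an eGFP-tagged MAB-5 in whole embryos of mixed stage and mixed sex. The strain, OP27, carries the mutation unc-119(ed3) on chromosome III and the integrated transgene wgIs27, which encodes the fusion, and the labels list no change to its own mab-5 gene. The labels give 2 biological replicates, which form 1 group, and no group without the fusion is analysed here, so no comparison between conditions is possible. Embryonic cell types that do and do not make MAB-5 were mixed in each sample, so a weak site and a site bound in few cells cannot be told apart. Sequencing depth is unknown.

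MAB-5 is an Antennapedia-type Hox protein that sets cell fates and cell migrations in the posterior body of the worm. MicroRNAs are cut from hairpin precursors and repress messenger RNAs that pair with their seed, bases 2 to 8 of the mature strand, so microRNAs with the same seed are grouped as a family. In worms the lin-4 and let-7 families time larval development, the mir-35 and mir-51 families are needed in the embryo, and mir-57 acts in posterior cells. Mature strands were annotated for 260 of the 262 genes, 458 in all.

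The mir-51 family carried the strongest signal among the annotated families, and its mature sequences are shown to make the shared seed visible. Sequences are from the RefSeq annotation and genome of the WBcel235 assembly (ce11), written 5′ to 3′, with the seed in capitals. The 6 genes are the only members with the seed ACCCGUA.
mir-51: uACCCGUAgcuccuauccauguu
mir-52: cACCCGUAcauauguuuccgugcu
mir-53: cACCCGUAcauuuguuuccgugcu
mir-54: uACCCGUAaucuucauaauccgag
mir-55: uACCCGUAuaaguuucugcugag
mir-56: uACCCGUAauguuuccgcugag
The mature strand of mir-57, a posterior microRNA of another family, has the seed ACCCUGU.
mir-57: uACCCUGUagaucgagcugugugu
Stretches of 241 bp centred on 3 summits are shown because they stand for 3 kinds of site, a summit just upstream of the hairpin, a summit on the hairpin and a summit with a Hox-type motif. The first, chrIV:11026070-11026310 on the minus strand, holds the mature mir-51 sequence and a match to GGTTCGANNCC in capitals. The second, chrIV:14033934-14034174 on the plus strand, has the mature mir-52 sequence in capitals. The third, chrIII:8874466-8874706 on the minus strand upstream of mir-90, has a match to TGATNNAT in capitals.
mir-51 summit: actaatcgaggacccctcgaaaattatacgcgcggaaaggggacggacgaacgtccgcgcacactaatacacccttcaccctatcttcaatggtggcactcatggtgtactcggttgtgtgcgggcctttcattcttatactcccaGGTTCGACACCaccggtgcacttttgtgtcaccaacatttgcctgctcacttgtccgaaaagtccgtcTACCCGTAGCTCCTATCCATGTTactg
mir-52 summit: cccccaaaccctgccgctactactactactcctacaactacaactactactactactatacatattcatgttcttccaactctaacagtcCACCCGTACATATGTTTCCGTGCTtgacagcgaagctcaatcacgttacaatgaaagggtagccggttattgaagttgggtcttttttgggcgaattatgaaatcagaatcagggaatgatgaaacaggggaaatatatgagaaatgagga
mir-90 summit: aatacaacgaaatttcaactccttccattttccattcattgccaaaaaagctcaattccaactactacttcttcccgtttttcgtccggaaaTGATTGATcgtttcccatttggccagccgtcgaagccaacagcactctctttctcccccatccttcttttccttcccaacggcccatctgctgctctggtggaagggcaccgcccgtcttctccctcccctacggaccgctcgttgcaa

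MAB-5 summits were found at microRNA genes at every level of signal, and each share was above that of protein-coding genes with windows of the same length. The authors' thresholded list was derived with the irreproducible discovery rate (IDR) and is the same as the 502 pooled peaks of highest signal, so a peak on it need not be present in each replicate's own list. It had a summit at 8 of 262 loci, or 3.05% (exact 95% binomial interval 1.33% to 5.93%). The share was 2.43% of 19973 protein-coding genes, 4.25% of 612 transfer RNA genes and 2.1% of 8552 other noncoding genes. Of the 30000 relaxed peaks called on both replicates pooled, which include background, at least 1 had its summit at 150 loci (57.3%, interval 51.02% to 63.3%), against 50.3% of protein-coding genes, 56.5% of transfer RNA genes and 55.7% of other noncoding genes. Both replicates' own relaxed lists had a summit at 106 loci (40.5%, interval 34.5% to 46.7%), against 33% of protein-coding genes, 38.7% of transfer RNA genes and 36.6% of other noncoding genes. For both counts the interval of the microRNA share held the shares of the 2 noncoding classes.

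Peaks were ranked by the deposited signal value, the authors' own enrichment measure per peak, and its scale is not stated in the files or labels. The 3000 strongest pooled peaks had a summit at 35 microRNA loci (13.4%, interval 9.48% to 18.1%), against 11.1% of protein-coding genes, 17.6% of transfer RNA genes and 11.1% of other noncoding genes. Without mir-1831 (rank 1968) the count was 34 of 261. Both replicates' own 3000 strongest peaks reached 18 loci (6.87%, interval 4.12% to 10.6%), against 4.4% of protein-coding genes. By the same count the share was 6.54% of transfer RNA genes and 4.28% of other noncoding genes. These noncoding shares lay within the interval of the microRNA share. The interval of the microRNA share held the protein-coding share for the thresholded list and for both counts of the 3000 strongest peaks, and lay above it for both counts from the relaxed lists. Intervals cover counting error only, and clustered genes share summits, so loci are not independent. When protein-coding windows were extended to the end of each gene, as the microRNA windows are, the protein-coding shares were 2.93% for the thresholded list, 64.7% for the pooled list, 53.5% for both replicates' lists and 14.8% for the 3000 strongest peaks. With those windows the protein-coding share was above the microRNA share in each of these counts but that of the thresholded list. For both replicates' own 3000 strongest peaks the protein-coding share was 6.58%, below the microRNA share of 6.87%.

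**Figure D1:**
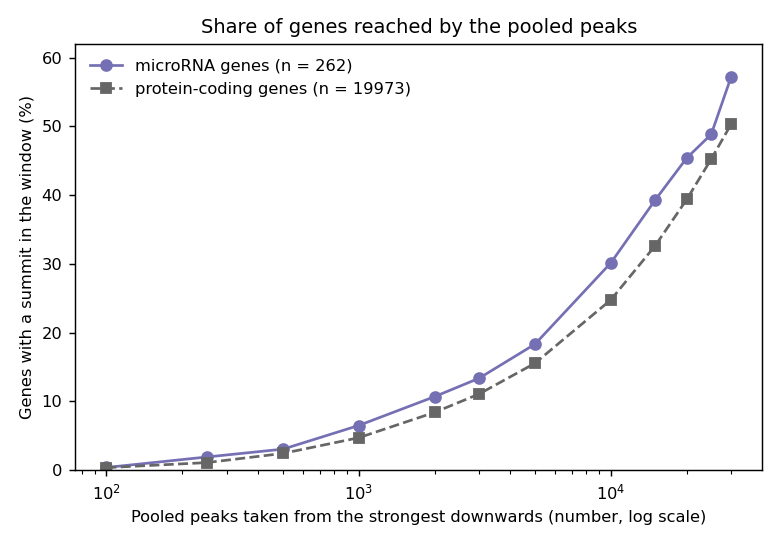
Share of genes with a summit in the window (vertical axis, %) as pooled peaks are taken from the strongest downwards (horizontal axis, number of peaks, log scale), for 262 microRNA genes and 19973 protein-coding genes. At 1000 peaks the shares were 6.49% and 4.71%, and at 10000 peaks 30.2% and 24.8%.

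The microRNA curve lay above the protein-coding curve at each of the 12 depths plotted. Counted by genome length, 7 of the 481 nuclear thresholded summits fell in the windows, 14.5 per Mb against 4.80 per Mb of the nuclear genome. The pooled list gave 198 summits, 411 per Mb against 299 per Mb. The genome figures include bases far from any gene start, and no density was computed for windows of other gene classes. Counted by gene, the thresholded share was 3.05% for microRNA loci, 2.43% for protein-coding genes and 4.25% for transfer RNA genes. The strongest pooled peak of the 150 loci had a median signal of 13.8, against 12.9 for 10056 protein-coding genes with a peak.

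The 8 loci of the thresholded list were mir-354, mir-51, mir-5549, mir-1828, mir-353, mir-52, mir-86 and mir-8211, of which the last pair share 1 summit. Each was named by its rank in the pooled list, and each site is given with the signal of the peak that covers its summit in each replicate. Because the thresholded list was derived from these same lists, the replicate values describe the sites and do not test them.

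The strongest site was at mir-354, a microRNA gene inside rps-20, which encodes a protein of the small ribosomal subunit, on chromosome I. Its signal was 106 in the pooled list (rank 27), 30.9 in replicate 1 (rank 55) and 74.0 in replicate 2 (rank 29). The summit lay 882 bp upstream of the microRNA gene and in the start windows of rps-20, of its neighbour ekl-4 and of Y105E8A.14. A start window runs from 2000 bp upstream to 500 bp downstream. The mir-353 site was similar in setting, 1051 bp upstream of the microRNA gene inside rpl-24, a gene of the large ribosomal subunit, and 292 bp upstream of the rpl-24 start. It was also in the start windows of rps-10, tmem-39 and D1007.10, and the annotated noncoding gene D1007.22 lay within 100 bp. The signal of the mir-353 site was 49.0 pooled (rank 184), 18.8 in replicate 1 (rank 205) and 28.4 in replicate 2 (rank 312). Both replicates thus ranked these 2 sites high in their own lists.

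mir-1828 lies inside pash-1, the gene for the RNA-binding partner of Drosha, the nuclease that cuts microRNA precursors. The summit was 1878 bp upstream of the microRNA gene and 88 bp upstream of the pash-1 start. Its signal was 52.7 pooled (rank 144), 12.7 in replicate 1 (rank 757) and 37.6 in replicate 2 (rank 131). At mir-5549 on chromosome III the summit lay 27 bp upstream of the microRNA gene. It was also in the start windows of the translation elongation factor gene eef-1A.1, of rfc-4 and of F31E3.2. Its signal was 57.2 pooled (rank 114), 12.2 in replicate 1 (rank 894) and 41.8 in replicate 2 (rank 99). Both sites ranked lower in replicate 1 than in replicate 2. These 4 thresholded loci (mir-354, mir-353, mir-1828 and mir-5549) have summits that are also in protein-coding start windows. The microRNA gene and the protein-coding gene or genes therefore cannot be told apart as the bound one.

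The other 4 thresholded loci had their summit outside every protein-coding start window. At mir-51 on chromosome IV the summit lay 78 bp upstream of the gene, with a signal of 57.9 pooled (rank 111), 25.8 in replicate 1 (rank 90) and 33.9 in replicate 2 (rank 179). The nearest protein-coding start, that of hrg-5, was 3238 bp away, and the annotated noncoding RNA gene F36H1.17 covered the summit, from 59 bp on its left to 29 bp on its right. At mir-52, also on chromosome IV, the summit lay 46 bp inside the gene, as the printed stretch shows, with a signal of 42.0 pooled (rank 270), 13.8 in replicate 1 (rank 558) and 30.5 in replicate 2 (rank 244). The nearest protein-coding start was 9726 bp away, but annotated noncoding genes other than mir-52 lay within 100 bp of the summit. The summit shared by mir-86 and mir-8211 lay in an intron of Y56A3A.7 on chromosome III, 1340 and 1094 bp upstream of them. Its signal was 35.5 pooled (rank 448) and 25.97 in replicate 2 (rank 398), while no peak of replicate 1 covered it. That site therefore rests on replicate 2, and the strongest replicate 1 peak in the window ranked 24176.

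**Figure D2:**
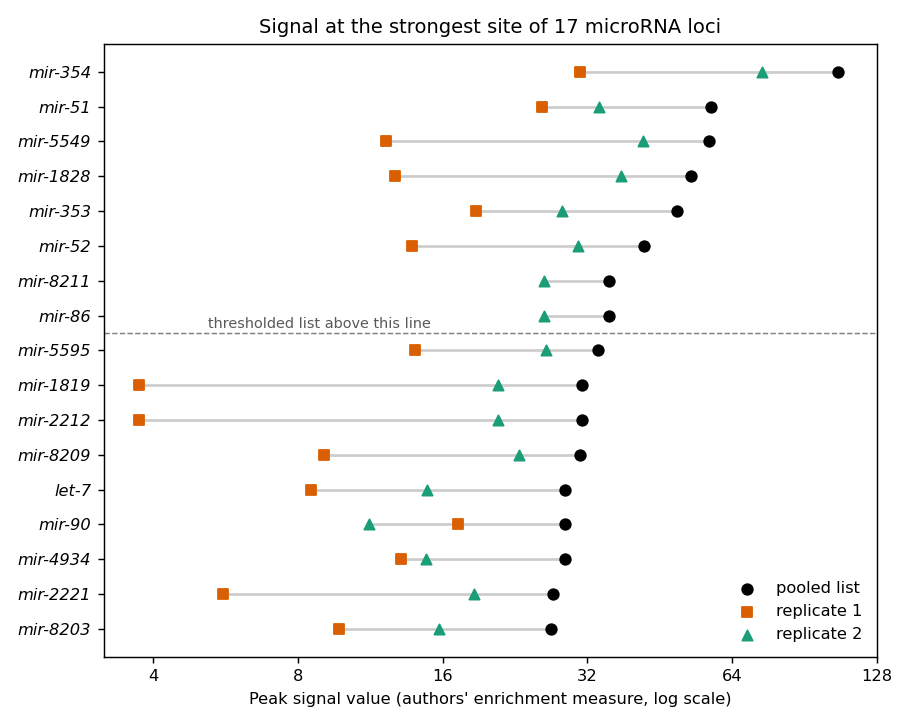
Signal value (horizontal axis, authors' enrichment measure, log scale) of the strongest pooled peak of each of the 17 microRNA loci among the 1000 strongest pooled peaks, with the signal of the covering peak in each replicate. The dashed line parts the 8 thresholded loci from the others, and mir-86 and mir-8211 have no symbol for replicate 1 because no peak of that replicate covers their summit.

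In that plot replicate 1 was lower than replicate 2 at each locus with both symbols except mir-90. The next loci in rank were not thresholded. mir-5595, in an intron of nurf-1, a chromatin remodelling gene on the opposite strand, had a signal of 33.6 pooled (rank 532), 14.02 in replicate 1 and 26.2 in replicate 2. It stood just below the lowest thresholded signal of 34.3. mir-2212 and mir-1819 share a summit on X with 31.1 pooled (rank 653) but only 3.73 in replicate 1 (rank 25114), against 20.9 in replicate 2. mir-8209 had 30.9 pooled (rank 664), 9.08 in replicate 1 and 23.0 in replicate 2, and mir-4934 had 28.7 pooled (rank 831), 13.1 in replicate 1 and 14.8 in replicate 2.

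Every member of the mir-51 family had a summit among the 3000 strongest pooled peaks, 6 of 6 genes, where the share over all microRNA loci was 13.4%. In worms this family is needed for embryonic development and for attachment of the pharynx, and its seed is that of the animal miR-100 microRNAs. The 6 genes lie in 3 separate windows and their strongest peaks are at 4 different summits, so the 6 are not 6 separate observations. The family was chosen with its values known, so no test is given. Besides mir-51 and mir-52, the mir-54, mir-55 and mir-56 cluster on X shared a summit 358, 528 and 665 bp upstream, in an intron of F09A5.3 on the opposite strand. Its signal was 22.6 pooled (rank 1622), 15.3 in replicate 1 (rank 403) and 17.4 in replicate 2 (rank 1449). mir-53 lies close to mir-51 and had its strongest summit 1776 bp upstream, 39 bp from the start of hrg-5, with a signal of 22.5 pooled (rank 1642) and 17.4 in replicate 2, and no covering peak in replicate 1.

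Several summits of this family lay near the same genes. mir-51 had further pooled summits 808 bp upstream (signal 22.2, rank 1704) and 1730 bp upstream (signal 21.5, rank 1894), and the latter is also 151 bp upstream of mir-53. mir-52 had another summit 728 bp upstream (signal 24.0, rank 1348), also with annotated noncoding genes within 100 bp. Within the 3000 strongest peaks of each replicate, the family had 5 of 6 members in replicate 1 and 6 of 6 in replicate 2, mir-53 being the member below that rank in replicate 1. Within the 1000 strongest pooled peaks it had 2 of 6, mir-51 and mir-52.

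**Figure D3:**
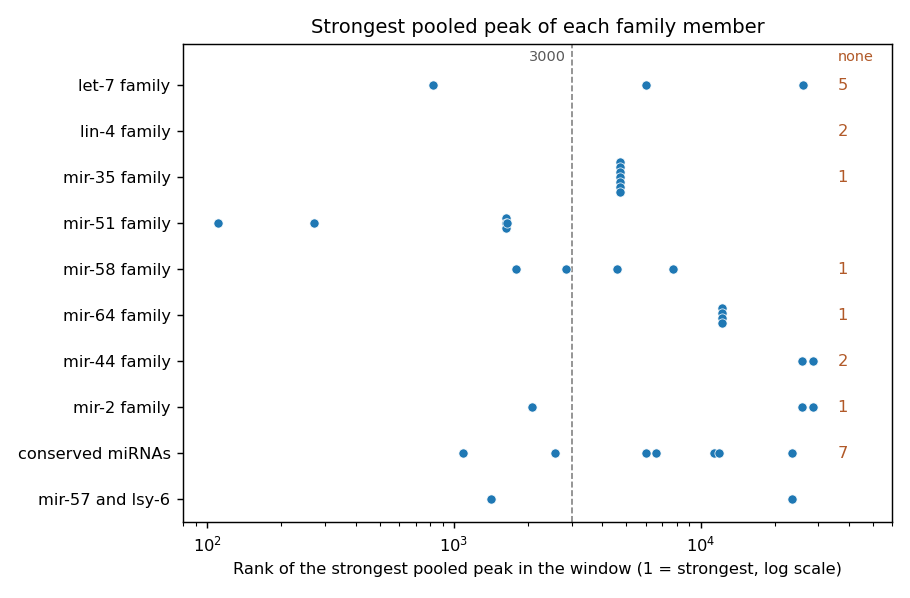
Rank of the strongest pooled peak in the window (horizontal axis, 1 is the strongest, log scale) for each member, taken by RefSeq symbol, of 10 microRNA groups, with genes that share a summit stacked. The dashed line marks rank 3000, the numbers at the right count members with no pooled summit, and the mir-51 family is the only group with every member to the left of the line.

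The let-7 family, whose members time larval development, had a pooled summit at 3 of 8 genes. let-7 itself had a signal of 28.7 pooled (rank 826), 8.50 in replicate 1 (rank 3179) and 14.8 in replicate 2 (rank 2562), with the summit 1888 bp upstream of the annotated transcript and 94 bp upstream of the start of wshc-2. mir-84, another timing microRNA, had a signal of 8.63 (rank 25988). mir-48 had no pooled summit and mir-241 none in any of the 3 relaxed lists. lin-4 and mir-237, the lin-4 family, had no summit in any of these lists either. The other large embryonic family, mir-35, had 7 of 8 genes with a pooled summit, but all 7 shared 1 summit with a signal of 16.4 (rank 4733), 13.2 in replicate 2 and no replicate 1 peak in the windows of 6 of them. None of its members reached the 3000 strongest peaks.

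The bantam-related mir-58 family had 4 of 5 genes with a pooled summit and 2 among the 3000 strongest, when taken by RefSeq symbol. Y73B6A.17, which Ensembl names as a mir-58 gene, shares the summit of mir-58.2, and with it the counts were 5 of 6 and 3. mir-58.1 had a signal of 21.8 (rank 1793), 12.8 in replicate 1 and 9.58 in replicate 2, and mir-58.2 had 19.0 (rank 2838), 13.1 in replicate 1 and 6.89 in replicate 2. Both were higher in replicate 1 than in replicate 2. The mir-64 family had 4 of 5 genes with a pooled summit, all at 1 shared summit, and 0 among the 3000 strongest. For the mir-44 family the counts were 2 of 4 and 0, and for the mir-2 family 3 of 4 and 1. These last families shared summits, mir-44 with mir-43 and mir-247 with mir-797, so their counts are not separate. Over all microRNA loci 57.3% had a pooled summit and 13.4% had one among the 3000 strongest. mir-61, a mir-44 family member that acts in vulval fate, had no summit in any relaxed list.

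Among 14 microRNAs that are conserved or known from muscle, neurons or ageing, 7 had a pooled summit, 7 had a summit in both replicates' lists, and 2 were among the 3000 strongest. mir-1, a muscle microRNA, had a signal of 26.03 (rank 1092) and 22.8 in replicate 2, with no covering peak in replicate 1. The strongest replicate 1 peak elsewhere in its window had a signal of 7.64 (rank 4603). The pooled summit of mir-1 was also in the start window of T09B4.3, 1751 bp upstream of the T09B4.3 start. mir-71, which acts in lifespan, had a signal of 19.5 (rank 2574) and 11.4 in replicate 1, with no covering peak in replicate 2. Each of these 2 sites thus had its covering peak in a single replicate. mir-124, a microRNA of sensory neurons, had no pooled summit, but had a summit in both replicates' own lists, with a signal of 10.8 in replicate 1 (rank 1324) and 8.38 in replicate 2 (rank 14719). mir-57, which acts in posterior cells with the Hox gene nob-1, had a signal of 23.6 pooled (rank 1411) at 1143 bp upstream and 18.9 in replicate 2 (rank 1128), with no covering peak in replicate 1. Elsewhere in its window replicate 1 had a peak with a signal of 8.88 (rank 2745). The pooled summit of mir-57 was also in the start window of acr-7, 1943 bp upstream of the acr-7 start. lsy-6, which sets left-right asymmetry of taste neurons, had a signal of 9.11 (rank 23536).

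Each upstream bin held summits. The bins of 500 bp going upstream from the gene start held 59, 53, 61 and 48 gene and summit pairs, and 16 more lay within a gene. Per gene these are 0.225, 0.202, 0.233 and 0.183 pooled summits, where protein-coding genes had 0.234, 0.156, 0.148 and 0.143. In the same bins replicate 1 had 54, 56, 55 and 42 pairs and replicate 2 had 60, 51, 50 and 46. The difference in profile between microRNA and protein-coding genes was not tested. Most microRNA gene models start at the hairpin and not at the start of the primary transcript. A pooled peak interval overlapped the microRNA gene itself at 47 of 262 genes (17.9%), and at 11 of these the peak was among the 3000 strongest. The share was 15% of stretches of 95 bp at protein-coding starts, 37.6% of transfer RNA genes, with a median length of 72 bp, and 22.3% of other noncoding genes, with a median of 141 bp. In the thresholded list an overlap was present at mir-51, mir-52 and mir-5549.

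**Figure D4:**
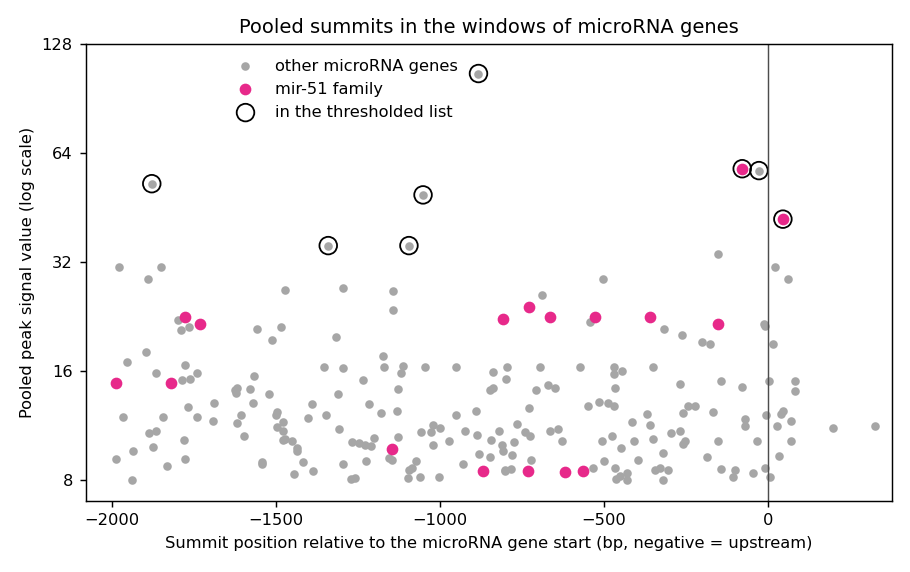
Position of each pooled summit relative to the microRNA gene start (horizontal axis, bp, negative is upstream) against its signal value (vertical axis, log scale), 1 point for each of 237 pairs of gene and summit. Filled coloured points are mir-51 family members and open circles mark the thresholded list, of which 3 lie within 100 bp of the gene start.

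By annotation, the strongest pooled summit of the 150 loci was intergenic at 80, in an intron of a protein-coding gene at 52, in a coding exon at 9 and in an untranslated region at the others. It lay in the start window of a protein-coding gene at 59 loci and outside all of them at 91. Among the loci with a summit in the 3000 strongest peaks, these counts were 17 and 18. Features and start windows were not counted over all nuclear pooled summits, so these counts only describe the loci. Of 75 microRNA genes inside a protein-coding gene on the same strand, 14 (18.7%) were reached by the 3000 strongest peaks. The counts were 17 of 155 (11.0%) for genes outside protein-coding genes and 4 of 32 (12.5%) for genes inside one on the opposite strand, and these 4 had 2 different strongest summits.

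By chromosome, the 3000 strongest peaks reached 8 of 33 microRNA genes on I (24.2%, against 15.01% of its protein-coding genes), 4 of 50 on II (8% against 10.9%) and 5 of 27 on III (18.5% against 16.4%). They reached 9 of 50 on IV (18% against 11.4%), 1 of 28 on V (3.57% against 7.01%) and 8 of 74 on X (10.8% against 9.04%). X has the most microRNA genes, and 0 of its 74 had a thresholded summit, which allows a share of up to 4.05%. Over all microRNA loci the thresholded share was 3.05%, and II (0 of 50) and V (0 of 28) had none either. For the thresholded list, protein-coding genes were not counted by chromosome. MicroRNA names are numbered in order of discovery, so low numbers mark genes cloned early. Genes numbered below 100, with let-7, lin-4 and lsy-6 counted among them, were reached by the 3000 strongest peaks at 17 of 59 (28.8%). Genes with a number of 3 digits were reached at 2 of 76 (2.63%) and genes from 1000 upwards at 15 of 123 (12.2%). The 17 early genes had 15 different strongest summits, and this split was chosen after its values were seen.

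The replicates overlapped in part at these loci. Replicate 1 had a relaxed summit at 149 loci and replicate 2 at 147, of which 106 were the same loci, 43 had it in replicate 1 alone and 41 in replicate 2 alone. No list had a summit at 67 loci. The strongest pooled peaks of the 150 loci are at 129 different summits, of which a replicate 1 peak covered 63, a replicate 2 peak 87, both 36 and neither 15. Across those 36 the signals of the 2 replicates correlated with a Spearman rho of 0.502 and a Pearson r of 0.743, given as a description across sites of the same 2 libraries. Replicate 2 was higher with a median ratio of 1.76, but the replicates' signal values may not share 1 scale.

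**Figure D5:**
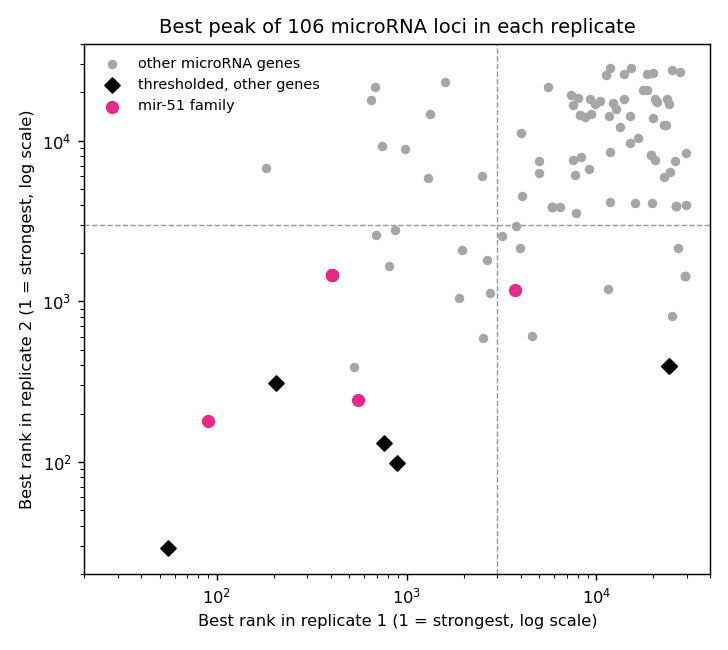
Rank of the best relaxed peak in the window in replicate 1 (horizontal axis) and replicate 2 (vertical axis), both log scales with 1 the strongest, for the 106 microRNA loci with a summit in both. The 18 loci in the lower left, where both ranks are at most 3000, include 5 of the mir-51 family, and mir-54, mir-55 and mir-56 fall on the same point.

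Hox proteins bind many sites together with PBC-type cofactors, and TGATNNAT is the composite site of such pairs. Both strands were searched from 100 bp before to 100 bp after the summit. It was present at 26 of the 198 summits in microRNA windows (13.1%, exact 95% interval 8.76% to 18.6%) and at 12.6% of flanks centred 500 bp away. Among all 29978 nuclear pooled summits the share was 15.3%, and among stretches of the same length before protein-coding starts it was 16.3%. At the 37 microRNA summits among the 3000 strongest peaks it was present at 2 (5.41%, interval 0.661% to 18.2%), against 19.1% of all 2978 nuclear summits of that strength. These 2 were the summits upstream of mir-90 and mir-53. A match is a description of the letters, not a site.

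mir-90 had a signal of 28.7 pooled (rank 827), 17.2 in replicate 1 (rank 266) and 11.2 in replicate 2 (rank 6721), in an intron of K01F9.2 and 502 bp upstream of the gene. The TGATTGAT in its printed stretch is the motif match, and in stretches of that length, 241 bp, 17.9% of all nuclear pooled summits held at least 1. Base composition differed between these sets. The median GC content was 36.3% at microRNA summits and 32.8% at all pooled summits, and 42.3% at microRNA summits among the 3000 strongest against 37.3% at all summits of that strength. Its part in the motif shares was not tested.

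Some thresholded peaks lay close to a microRNA gene but outside its window. Within 5000 bp of a microRNA gene start there were 18 thresholded summits, of which 7 were in a window and 11 were not. Of these 11, 8 were in a protein-coding start window. The same counts were not made for all thresholded summits or for other gene classes, so they only describe these sites. The strongest was 2905 bp upstream of mir-4813 on chromosome III, with a signal of 89.2 (rank 39), 62 bp upstream of the start of idhg-1, a subunit of isocitrate dehydrogenase. Another lay 772 bp downstream of the start of mir-231 on chromosome III, in no protein-coding start window and with the Hox gene lin-39 as the nearest start, 7751 bp away. Its signal was 48.5 pooled (rank 188), 25.6 in replicate 1 and 22.4 in replicate 2. Just outside the 2000 bp reach, a summit lay 2078 bp upstream of mir-62 (signal 38.7, rank 336), where the farthest thresholded summit inside the reach was that of mir-1828. A thresholded summit 2435 bp upstream of mir-1 (signal 40.8, rank 300) was 3 bp upstream of the start of T09B4.3.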

How the data were processed

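ChIP-seq peaks of eGFP-MAB-5 from 2 biological replicates of mixed-stage embryos were analysed as peak lists. Per the file descriptions deposited with the samples, the authors called relaxed lists, meant as input for IDR and including background, on each replicate and on both pooled, with a control alignment, and derived the thresholded list from them. The relaxed lists have 30000 peaks each, the thresholded one 502. The deposited signal value per peak was ranked within a list, and replicates' values are set side by side although they may not share 1 scale. The sources used here do not give the peak caller, the aligner or their versions, and read depth is unknown. Lists in the older build, ce10, were not used.

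Gene models came from Ensembl release 115 and names and mature sequences from RefSeq, both WBcel235. All 262 members had a RefSeq symbol, and 261 had the Ensembl biotype miRNA, mir-1831 being the exception. Summits were assigned to windows with Python 3.11.15, pandas 2.3.3 and numpy 2.4.6, and exact binomial intervals came from scipy 1.17.1. The limits given for counts of 0 take 3 counts as the most that 0 allows, and are not exact intervals. No p-value was computed. Peaks and genes share libraries, so intervals say nothing of variation between samples.

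The members, families and the split by name number were chosen with earlier results of these data known, and the search for GGTTCGANNCC was added after the mir-51 sequence was seen. Named genes were those with or nearest to a thresholded summit, the 15 strongest loci, up to 15 in the 3000 strongest peaks of both replicates, 14 chosen by role and up to 3 a family. Window assignment and motif search were tested on simulated data. Alternatives changed the window reach, overlap, list, replicate and motif reach.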

Additional observations from a re-analysis of the deposited data

How the results depend on the processing

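No paired analysis was possible because the samples form 1 group. The count of thresholded loci was 4 with 1000 bp upstream, 14 with 5000 bp, 4 without summits in protein-coding start windows and 5 with the stronger part of the list, and 7 to 10 with a single replicate's strongest peaks. The pooled count was 96 without summits in protein-coding start windows and 147 to 149 with a single replicate. The count in both replicates was 63 with 1000 bp, 176 with 5000 bp and 63 without summits in protein-coding start windows. The count among the 3000 strongest was 20 with 1000 bp, 57 with 5000 bp, 19 without summits in protein-coding start windows, 17 for the 1000 strongest, 79 for the 10000 strongest, and 33 with each single replicate. The mir-51 family gave 2 of 6 for the 1000 strongest, 3 when counted by separate window, and 5 to 6 with a single replicate. The alternatives for this family and for named loci were chosen after seeing the data. The strongest signal of named loci, of which there were 48, moved at 7 and stayed at 35 with 1000 bp, while mir-1828, mir-2212, mir-1819, lsy-6, mir-71 and mir-228 then had no summit. It moved at 7 and stayed at 41 with 5000 bp. Here moved means a change of at least 3.18, the standard deviation of the median signals of the 2 replicates. That value reflects the difference in level between replicates, which may not share 1 scale, and is not the error of a locus. The TGATNNAT share was 5.56% within 50 bp and 26.3% within 200 bp. A wider reach takes in more bases, which by construction raises these counts and shares. The median signal stayed between 12.2 and 15.1 with the alternative windows. Read depth is unknown, so the error of a single signal value cannot be given, and the relaxed lists include background by design.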

Other observations

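The mir-51 summit holds GGTTCGANNCC, the letters of the internal promoter element of transfer RNA genes known as the B box, on the strand of mir-51. The search was made on both strands within 100 bp of summits, after this sequence had been seen. A match was present at 2 of 198 summits in microRNA windows, those of mir-51 and of mir-4936 (signal 12.2, rank 11986). It was present at 14 of 481 thresholded nuclear summits (2.91%), at 0.610% of all nuclear pooled summits and at 0.0951% of stretches of the same length before protein-coding starts. Of those 14 thresholded summits, 10 had an annotated transfer RNA gene within 100 bp. The mir-51 summit had none, and the gene that covers it, F36H1.17, is annotated as a noncoding RNA on the same strand as mir-51.

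None of the 37 microRNA summits among the 3000 strongest peaks had a transfer RNA gene within 100 bp, which allows a share of up to 8.11%, where 2.72% of all 2978 nuclear summits of that strength did. Other annotated noncoding genes lay within 100 bp of 9 of the 37 (24.3%), against 11.5% of the 2978 and 17.5% of the 481 thresholded nuclear summits. The 9 include the mir-52 summits of rank 270 and rank 1348, so they are not separate loci. They also include the summit of mir-1831, itself annotated as a small nuclear RNA gene. The difference in share was not tested.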
